A study of Mus musculus with 22 samples.

Results

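The 6 complement genes followed here are C1qa, C1qb and C1qc, which encode the chains of C1q, C4b and C3, which encode the cascade components C4 and C3, and Serping1, which encodes the C1 inhibitor. They were chosen by symbol, and all 6 had an entry among the 20668 genes of the single-nucleus table and the 16304 genes of the whole-cell table. Hypothalamus was taken from male ob/ob mice aged 11 weeks after 1 intracerebroventricular (icv) injection of 3 µg fibroblast growth factor 1 (FGF1) or of phosphate-buffered saline vehicle. Each vehicle group was held to the food intake of its FGF1 group (pair-fed, PF), and every group shared the leptin-deficient ob/ob background. Single-nucleus RNA-seq covered Day 1 (3 FGF1 and 3 PF vehicle mice) and Day 5 (2 and 2). Single-cell RNA-seq of whole cells covered Day 5 in a separate cohort (6 and 6), with 1 mouse per library and 22 mice in all. The question was which cell types of the hypothalamus carry complement transcripts, and whether icv FGF1 changed them at either time.

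Complement is a cascade of secreted proteins. C1q recognises its target and starts the classical pathway, the proteases C1r and C1s bound to it cleave C4 and C2, and the resulting convertase cleaves C3, where all pathways of activation meet. The C1 inhibitor blocks C1r and C1s. In the brain, C1q is made mainly by microglia, and C4 and C3 are known to rise in glia in injury and ageing, where C1q and C3 tag synapses for removal by microglia.

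The tables held unique molecular identifier (UMI) counts for 24965 nuclei and 54890 cells, with 2721087 to 16345981 UMIs per mouse in nuclei and 2652897 to 11866269 in cells. UMIs were summed per mouse and cell type, and levels are given as CPM (a gene's UMIs scaled to a common total per sum). Sums cannot tell apart fewer cells that express a gene and less RNA per cell. Some barcode sequences occurred in 2 or more libraries of a table, 320 in nuclei and 1825 in cells. The nuclei include those labelled as filtered for a low silhouette score, which the study removed as ambiguous. These nuclei entered no cell type here, but they count in sums over all nuclei and in library shares of C1qc. Cells of the whole-cell table carried the fixed markers of their types, whereas the nuclei called microglia, oligodendrocytes and OPC/COP also held neuronal transcripts. The deposited metadata gave each library a batch, and each batch held 1 FGF1 and 1 vehicle mouse. Both mice of whole-cell batch 3 (FGF1 mouse 6 and vehicle mouse 22) stood apart in several values: C4b was high in several types and Serping1 in tanycytes, C3 was high in ependymal cells of vehicle mouse 22, and C1q genes were high in astrocytes, endothelial cells, oligodendrocytes and OPC of FGF1 mouse 6. Several results that rest on them, but not all, are also given without them, and values below are listed in the order of the batches.

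All 6 genes lie on the minus strand of GRCm38. C1qa (chr4:136895917-136898803), C1qc (chr4:136889804-136893065) and C1qb (chr4:136880129-136886187) are neighbours, C4b (chr17:34728380-34743882) and C3 (chr17:57203970-57228136) share a chromosome, and Serping1 lies at chr2:84765387-84775444. Of the 100-base stretches in the last 600 bases of the C4b transcript, where 3′ reads fall, 12.6% also occur in its near-identical neighbour C4a, so some C4b reads could have been split or lost. C4a was not analysed here. RefSeq promoter entries (GRCm38.p6, the 250 bases before the start) were held for 3 of the 6 genes. Those of C1qb and C1qc are shown because these genes are neighbours with the same cell-type pattern, while their log2 fold changes (log2 FC) in Day 5 nuclei had opposite signs in nuclei called microglia. Capitals mark GAGGAA, the core bound by PU.1 and other ETS factors, searched on both strands. PU.1 is the lineage factor of microglia and macrophages.
C1qb promoter, chr4:136886201-136886450, minus strand: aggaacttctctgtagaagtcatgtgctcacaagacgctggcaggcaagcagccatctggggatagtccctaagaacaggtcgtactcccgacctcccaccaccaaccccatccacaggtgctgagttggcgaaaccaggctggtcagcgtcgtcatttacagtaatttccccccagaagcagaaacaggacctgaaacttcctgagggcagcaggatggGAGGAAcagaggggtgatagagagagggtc
C1qc promoter, chr4:136892915-136893164, minus strand: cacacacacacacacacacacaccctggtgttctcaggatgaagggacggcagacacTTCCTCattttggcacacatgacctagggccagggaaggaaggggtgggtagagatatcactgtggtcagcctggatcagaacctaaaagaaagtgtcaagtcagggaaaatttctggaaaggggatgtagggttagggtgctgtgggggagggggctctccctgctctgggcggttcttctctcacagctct
In C1qb the match lay 30 to 25 bases before the start, and in C1qc it lay on the opposite strand (TTCCTC), 193 to 188 bases before the start. These starts are those of RefSeq. For C1qc the RefSeq start lies 151 bases inside the gene as annotated above, so the window holds the annotated first bases, and counted from the annotated starts the matches lay 42 to 37 bases before C1qc and 43 to 38 before C1qb. The same letters occurred in 23.3% of the 32851 promoters in the table, so a match is a description of the sequence and no more. The same search on both strands for the motifs of NF-kB (in 0.356% of promoters), STAT (TTCNNNGAA, 7.02%), C/EBP (TTGCGCAA, 0.164%), AP-1 (TGANTCA, 6.75%) and IRF (2.98%) found no match in the 3 promoters, and GAGGAA none in that of C3.

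C1q transcripts in whole cells belonged to microglia and macrophages. In the 6 vehicle mice, C1qa in microglia averaged 3314 ± 1135 CPM (SD, n = 6), C1qb 3634 ± 1164 and C1qc 3099.9 ± 923. Macrophages of 4 vehicle mice followed with 2416 ± 1381, 2372 ± 968 and 1945 ± 900.1 CPM for C1qa, C1qb and C1qc. The ranges of the 2 immune types overlapped, and neither overlapped that of pericytes, the next type in order, which averaged 136, 211 and 163 CPM.

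C4b in whole cells was spread over more types. Its vehicle mean was 175 ± 363 CPM in ependymal cells, which line the ventricles, 152 ± 121 in astrocytes and 150.0 ± 88.1 in macrophages (n = 4). The ependymal mean rested on batch 3, since the median of the 6 vehicle mice was 26.7 CPM. Pericytes (90.8 CPM), microglia (77.8), vascular leptomeningeal cells (VLMC, 56.8) and tanycytes, the ependymal-like glia of the third ventricle floor (53.5), came next. The microglial mean also rested on vehicle mouse 22, at 288 CPM, and its median of 37.4 CPM lay below those of VLMC (62.6) and tanycytes (45.8). Oligodendrocytes (30.2 CPM), smooth muscle cells (26.0), endothelial cells (23.6), OPC (oligodendrocyte precursors, 23.4) and COP (committed precursors, 20.3) were lowest, and each type's range overlapped that of its neighbour in this order. In vehicle nuclei of Day 1, C4b was highest in ependymal cells (589 ± 427 CPM, n = 3), tanycytes (197 ± 112) and astrocytes (176 ± 84.3). There it measured 11.1 CPM in OPC/COP, 8.02 in oligodendrocytes, 7.27 in microglia and 4.86 in unmapped neurons.

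C3 was sparse. Vehicle means were 65.9 CPM in ependymal cells, 64.3 in VLMC, 58.1 in macrophages and 5.86 in microglia, and no other type exceeded 1.74. These means rested on few mice: the medians were 16.1 CPM in ependymal cells and 52.7 in VLMC, and 0 in macrophages and microglia, where vehicle mouse 22 gave 232 CPM in macrophages and the other 3 were at 0. Serping1 was a VLMC gene at 646.5 ± 196 CPM (n = 4), with a range of 408 to 861 CPM that did not overlap that of the next type, pericytes (0 to 97.0).

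**Figure D1:**
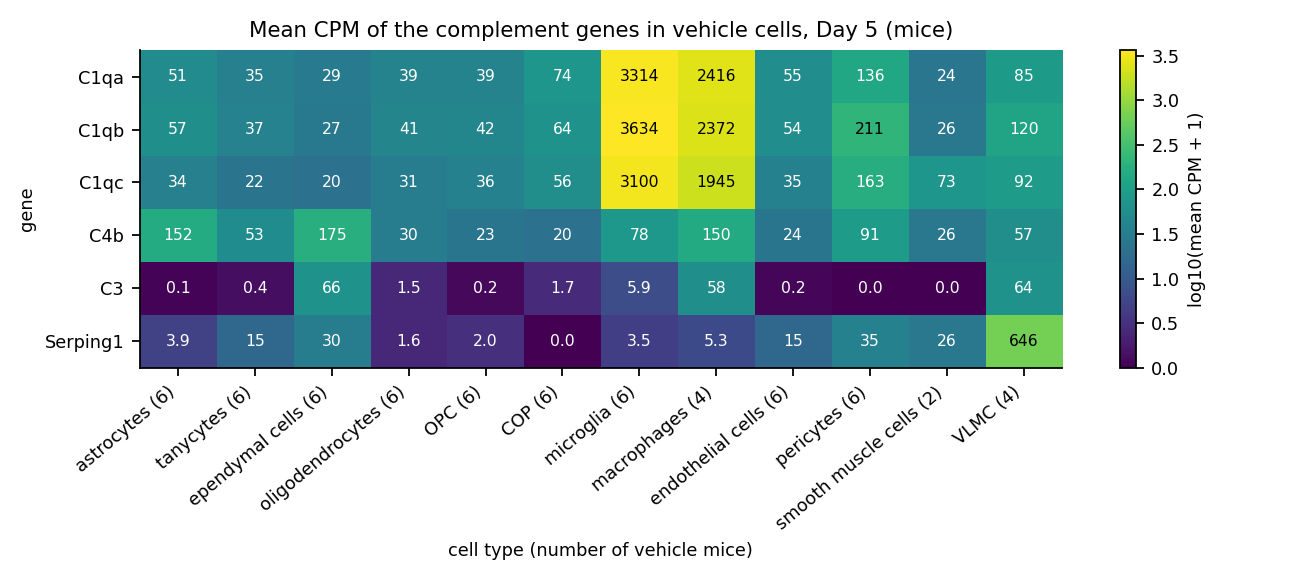
Mean CPM of the 6 complement genes (vertical axis) in 12 cell types (horizontal axis, with the number of vehicle mice) of Day 5 vehicle cells, with colour on a log10 scale and the mean printed in each square. The C1q genes stand out in microglia and macrophages, Serping1 in VLMC at 646.5 CPM, and C4b is spread over glia, macrophages and vascular cells.

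The genes whose vehicle means over the 12 types were most like each member's are given as a description, by Pearson's r across 12 types and 13071 genes, where types from the same mice share libraries. C4b was most like Sdc4 (r = 0.898), Oscp1 (0.859) and Gm20383 (0.844). C3 was most like Zbp1 (0.873), Nr4a3 (0.873) and H2-Aa (0.863). C1qa and C1qb were most like each other (0.995) and Tyrobp (0.990 and 0.996), an adaptor of immune receptors, and then Cd33 (0.980 and 0.984). C1qc was most like Man2b1 (0.980), Laptm5 (0.979) and C1qb (0.968), and Serping1 most like the stromal genes Igfbp5 (0.936), Pcolce (0.929) and Crispld2 (0.918).

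On Day 5 in whole cells, most estimates for complement transcripts lay above 0, and whether they passed the test turned on how the batches were treated. Without a batch term, none of 34 member-by-type tests was called by edgeR at an FDR below 0.05, 7 had an unadjusted p under 0.05, and all 7 were higher with FGF1. Over all genes and types, 4.18% of tests were called. The estimate was above 0 in 29 of the 34, with a median log2 FC of 0.48, while the median over all genes tested in a type ran from -0.03 to 0.02. These 34 tests share the same 12 mice and are not independent. With batch as a block, 10 of the 34 were called, all higher, against 5.0% of all tests. They were C4b in astrocytes, tanycytes, oligodendrocytes and endothelial cells, Serping1 in tanycytes, C1qa in OPC and oligodendrocytes, C1qb in OPC, and C1qc in OPC and endothelial cells. Without both mice of batch 3 and with no batch term, 5 of 32 were called (3.83% of all tests). DESeq2 called 1 of 63 without the block (1.36% of all tests), C1qb in OPC at an FDR of 0.0445, with 18 at an unadjusted p under 0.05, and 5 of 66 with the block (0.857%).

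**Figure D2:**
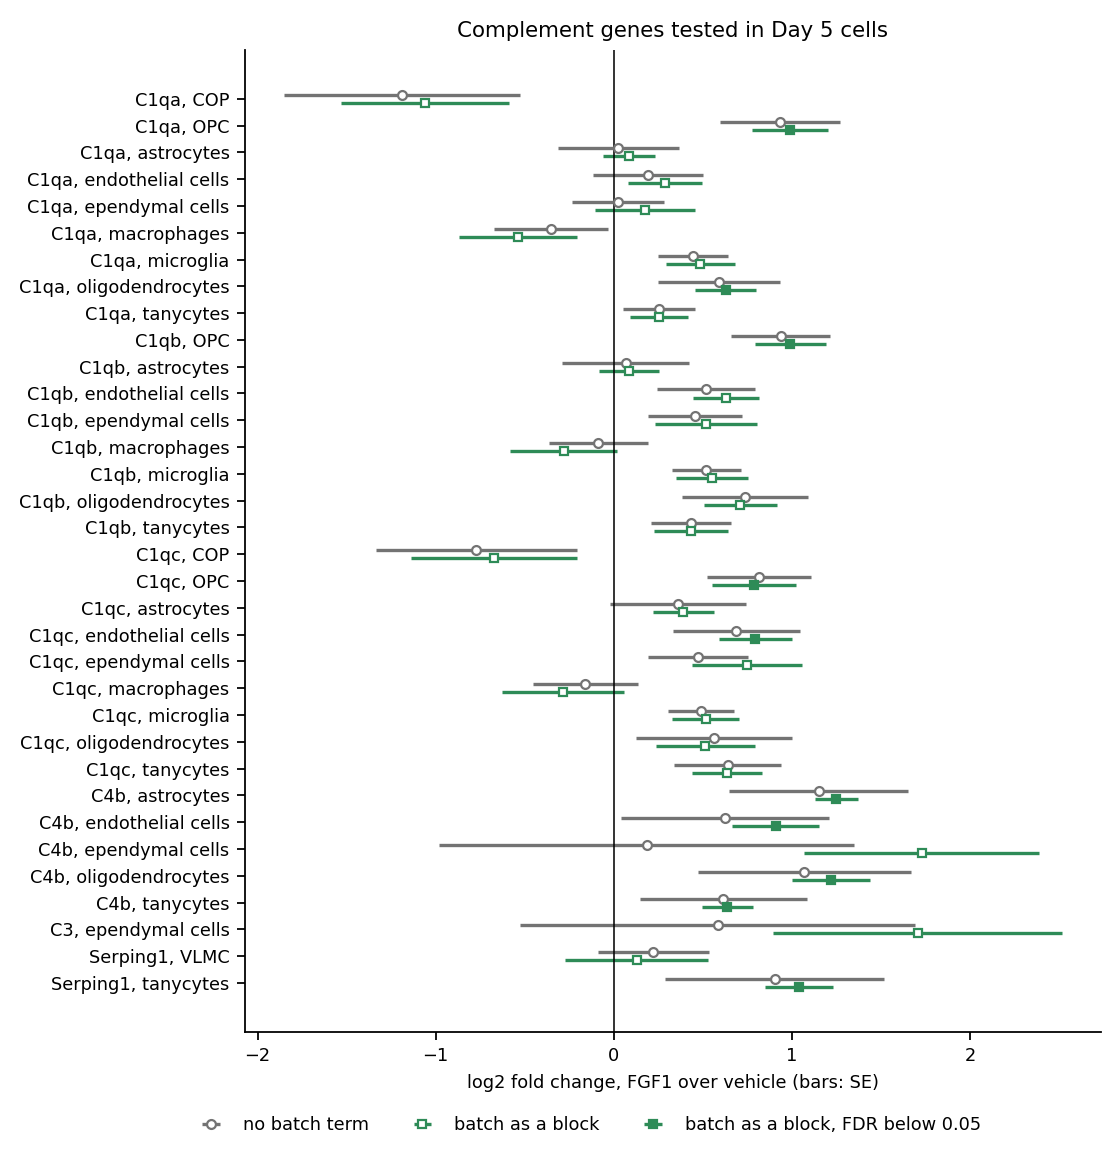
Log2 fold change of FGF1 over vehicle (horizontal axis, bars are SE) for the 34 complement gene and cell type pairs tested by edgeR in Day 5 cells, without a batch term (grey circles) and with batch as a block (green squares, filled where the FDR was below 0.05). The filled squares number 10 and all lie right of 0, and the SE of C4b in astrocytes is 0.50 without the block and 0.12 with it.

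C1q in its own cells did not pass the test in either fit. In microglia, C1qa measured 3063, 2745, 3853, 2018, 5293 and 2913 CPM in the vehicle mice and 5599, 3635, 3377, 4859, 5394 and 4297 CPM in the FGF1 mice of the same batches. The FGF1 mouse had the higher value in 5 of 6 batches, all but batch 3, and the groups overlapped. The log2 FC was 0.44 ± 0.20 (SE, edgeR FDR = 0.335), and 0.49 with the batch block (FDR = 0.247).

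Of the other chains in microglia, C1qb measured 2846, 3454, 4887, 2393, 5241 and 2982 CPM in vehicle mice and 6361, 4003, 3821, 5689, 6591 and 4877 CPM in FGF1 mice, with a log2 FC of 0.52 ± 0.20 (FDR = 0.234). C1qc measured 2644, 2626, 3734, 2242, 4683 and 2671 CPM in vehicle and 5357, 3157, 3697, 5209, 4935 and 3905 CPM in FGF1 mice, with a log2 FC of 0.49 ± 0.18 (FDR = 0.234). Both were higher in 5 of 6 batches, again not in batch 3. Leaving out vehicle mouse 35 took C1qc past the threshold, at 0.67 (FDR = 0.0438). The title of that mouse does not name its group as the other titles do. Its treatment label and its PF name in the deposited metadata both place it in the vehicle group. Over all genes tested in microglia, 0.262% were called, or 0.523% with the block. None of 10 microglial markers was called. The microglia of this table were led by Ccl4, Il1a, Saa3, Tnf and Cx3cr1, that is by cytokine genes beside a lineage marker. They made up 1.65 to 12.0% of cells in FGF1 and 1.92 to 5.51% in vehicle mice (exact permutation p = 0.684, two-sided).

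Macrophages gave estimates below 0 for all 3 chains. C1qa measured 1880.5, 1182, 4383 and 2218 CPM in the vehicle mice of batches 3 to 6, and 2337, 1643, 1435, 1685 and 2409.8 CPM in the FGF1 mice of batches 1, 2, 3, 5 and 6. C1qb measured 1880.5, 1490, 3709 and 2408 CPM in vehicle and 3221, 1695, 1808, 2046 and 2493 CPM in FGF1 mice, and C1qc 1204, 1182, 2986 and 2408 CPM in vehicle and 2274, 1408, 1648, 1564 and 1795 CPM in FGF1 mice. The groups overlapped widely. Estimates were -0.35 for C1qa (FDR = 0.984), -0.09 for C1qb (0.989) and -0.16 for C1qc (0.984), and no gene at all was called in macrophages (0.0%).

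The C1q calls came from types in which these genes were low. In OPC, C1qb measured 25.5, 34.3, 78.0, 44.6, 29.9 and 40.3 CPM in vehicle mice and 79.9, 97.5, 157, 88.0, 65.9 and 51.3 CPM in FGF1 mice. Every batch had the higher value in its FGF1 mouse, which 5.25% of all genes tested in OPC also did, although the groups overlapped. The log2 FC was 0.94 ± 0.28 (edgeR FDR = 0.0684) and 0.99 ± 0.20 with the block (FDR = 8.6e-04), where 4.41% of genes were called. It was 0.99 without batch 3 (FDR = 0.0166), and without the block it passed when FGF1 mouse 36 (1.12, FDR = 0.00755) or vehicle mouse 22 (1.23, FDR = 0.00253) was left out.

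C1qa in OPC measured 43.7, 25.7, 68.2, 26.4, 36.3 and 31.5 CPM in vehicle and 74.0, 44.7, 161, 88.0, 38.5 and 54.6 CPM in FGF1 mice. It too was higher in 6 of 6 batches with overlapping groups. Its log2 FC was 0.93 ± 0.34 (FDR = 0.15), 0.99 ± 0.21 with the block (FDR = 0.00208), and 1.22 without vehicle mouse 22 (FDR = 0.0196). C1qc in OPC measured 51.0, 25.7, 45.5, 34.7, 25.7 and 31.5 CPM in vehicle and 62.1, 60.9, 145, 41.9, 49.4 and 34.7 CPM in FGF1 mice, with a log2 FC of 0.82 ± 0.29 (FDR = 0.131) and 0.79 ± 0.24 with the block (FDR = 0.0383). The blocked call of C1qc was lost without batch 2 (FDR = 0.0571), batch 3 (0.42) or batch 5 (0.0717). Without the block it passed when FGF1 mouse 36 was left out, at 1.02 (FDR = 0.0267).

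Microglial transcripts moved in the same libraries of OPC. The 3 C1q genes summed to 141 to 463 CPM in FGF1 OPC and 85.7 to 192 CPM in vehicle OPC, and the 10 microglial markers to 82.4 to 147 and 72.7 to 117 CPM. As a share of the same sum in the microglia of the same mouse, C1q in OPC had a median over mice of 1.32% in FGF1 and 1.31% in vehicle mice, and the markers had medians of 1.16% and 1.01%. Among the markers, the ratio of FGF1 to vehicle in OPC was 2.81 for Fcrls, 2.60 for Cx3cr1, 2.34 for Gpr34, 1.91 for Siglech and 1.60 for Csf1r, but 0.665 for Tmem119. The part of free or doublet microglial RNA in the OPC values was not tested.

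Shares of cells with a UMI were measured as well. After thinning each cell to 750 UMIs, 5.41% ± 1.32 (SD, n = 6) of FGF1 OPC and 2.88% ± 1.23 of vehicle OPC had a C1qb UMI (exact permutation p = 0.00866, adjusted p = 0.26 over 30 tests). Unthinned, the shares were 9.04% and 4.55%. Endothelial cells, which should lack C1q, had a C1qb UMI in 5.58% and 3.71% of thinned cells of FGF1 and vehicle mice. Single FGF1 mice ran from 2.42 to 11.3% there and from 3.78 to 7.41% in OPC. FGF1 and vehicle means were 5.52% and 2.95% in oligodendrocytes, 4.38% and 3.81% in astrocytes, and 3.23% and 2.65% in tanycytes. C1qa was seen in 5.09% ± 3.21 of thinned FGF1 OPC and 2.55% of vehicle OPC, against 4.17% and 3.16% of endothelial cells. Median UMIs per cell, taken over mice, were 1152 and 1194 in OPC and 1304 and 1319 in endothelial cells of FGF1 and vehicle mice.

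Outside OPC, 2 more C1q pairs were called with the block. C1qa in oligodendrocytes measured 40.9, 23.5, 69.1, 35.2, 25.6 and 36.9 CPM in vehicle and 74.6, 88.0, 111, 43.8, 29.8 and 45.3 CPM in FGF1 mice, with overlapping groups. It had a log2 FC of 0.59 (FDR = 0.41) and 0.63 with the block (FDR = 0.0349, with 4.12% of genes called), and leaving out any of the 6 batches ended the call. C1qc in endothelial cells measured 29.8, 25.7, 52.7, 34.1, 27.2 and 43.4 CPM in vehicle and 32.0, 42.6, 150.4, 60.6, 33.8 and 64.0 CPM in FGF1 mice. It was higher in 6 of 6 batches, as were 4.04% of genes tested there, with overlapping groups. It had a log2 FC of 0.69 (FDR = 0.461) and 0.80 with the block (FDR = 0.043, with 1.77% called), and kept the call in 1 of 6. Without both mice of batch 3 and with no batch term, it was 0.68 for C1qa in oligodendrocytes (FDR = 0.146) and 0.47 for C1qc in endothelial cells (FDR = 0.436). In astrocytes the 3 chains had log2 FCs of 0.03, 0.07 and 0.36 (FDR = 0.977, 0.938 and 0.608). C1qa in COP had the lowest estimate of all, -1.19 ± 0.66 (FDR = 0.486), from 0 to 9 UMIs per vehicle mouse.

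C4b in astrocytes was higher in the FGF1 mouse of every batch. It measured 126, 127, 396, 85.8, 92.1 and 86.4 CPM in vehicle mice and 290.1, 333, 784, 245, 219 and 202 CPM in FGF1 mice. The groups overlapped, since vehicle mouse 22 was at 396 CPM. The other vehicle mice lay below every FGF1 mouse, a description made after setting that mouse aside, with no share over all genes measured for it. The ratio within a batch ran from 1.98 to 2.86, and 8.36% of all genes tested in astrocytes were higher in every batch.

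The group means of C4b in astrocytes were 345 ± 219.9 and 152 ± 121 CPM (SD, n = 6 each). On the log2 scale the FC was 1.15 ± 0.50 (edgeR FDR = 0.176) without a batch term, 1.75 without vehicle mouse 22 (FDR = 0.0183) and 1.34 without both mice of batch 3 (FDR = 1.87e-06). With the block it was 1.25 ± 0.12 (FDR = 2.81e-08), where 12.2% of astrocyte genes were called, and it was called with each batch left out in turn, at 1.199 to 1.31. After thinning, 20.0% ± 9.60 of FGF1 and 9.45% ± 6.17 of vehicle astrocytes had a C4b UMI (exact permutation p = 0.0281, adjusted p = 0.346), against 3.05% and 1.75% of endothelial cells. Unthinned, the astrocyte shares were 29.4% and 13.4%.

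**Figure D3:**
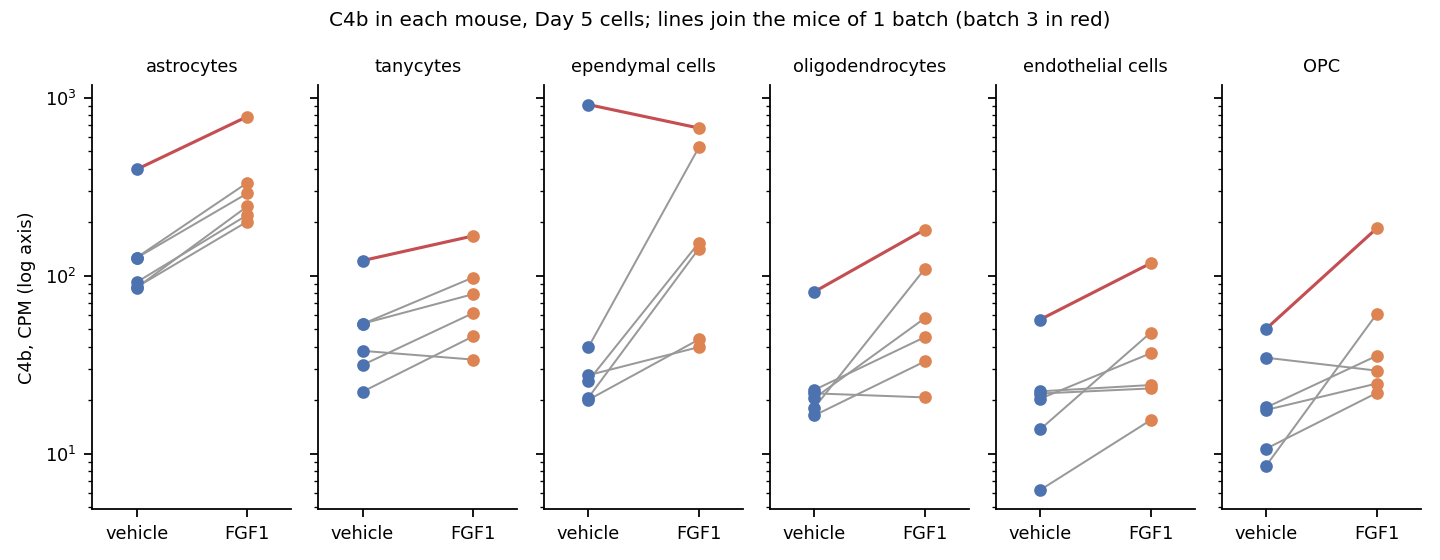
C4b in CPM (log axis) for each vehicle (blue) and FGF1 (orange) mouse in 6 cell types of Day 5 cells, with lines joining the 2 mice of a batch and batch 3 in red. All 6 lines slope up in astrocytes, and batch 3 lies highest in every group shown.

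The astrocytes of the 2 groups lay in different deposited clusters. Cluster 4, led by Gfap, Serpina3n and Aqp4, with C4b also among its leading genes, held 47.9 to 93.1% of the astrocytes of FGF1 mice and 3.74 to 18.4% of those of vehicle mice, most of which lay in cluster 1. These shares are a description with no test, since C4b helped to set the clusters apart. In cluster 1, C4b measured 93.3, 98.9, 299, 72.9, 75.5 and 82.0 CPM in vehicle and 201, 167, 294, 92.4, 111 and 118 CPM in FGF1 mice, higher in 5 of 6 batches. In cluster 4 it measured 583, 413, 868, 433, 347 and 212 CPM in vehicle and 324, 418, 958, 293, 287 and 311 CPM in FGF1 mice, higher in 3 of 6.

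Neither cluster gave a call for C4b. Its log2 FC was 0.27 ± 0.49 in cluster 1 (FDR = 0.923) and 0.49 ± 0.18 with the block (FDR = 0.191). In cluster 4 it was -0.24 ± 0.42 (FDR = 0.948) and -0.17 with the block (FDR = 0.89). Over all deposited clusters, none of 39 member tests was called without the block (1.75% of all tests were), 10 had an unadjusted p under 0.05, all higher, and 9 were called with it (2.27% of all tests). Since C4b helped to set the astrocyte clusters apart, its tests within clusters 1 and 4 cannot decide whether it changed in astrocytes. Cluster 4 also held only 43 to 351 cells per vehicle mouse. Over all astrocytes, the C4b difference was measured between cells that mostly lay in different clusters.

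**Figure D4:**
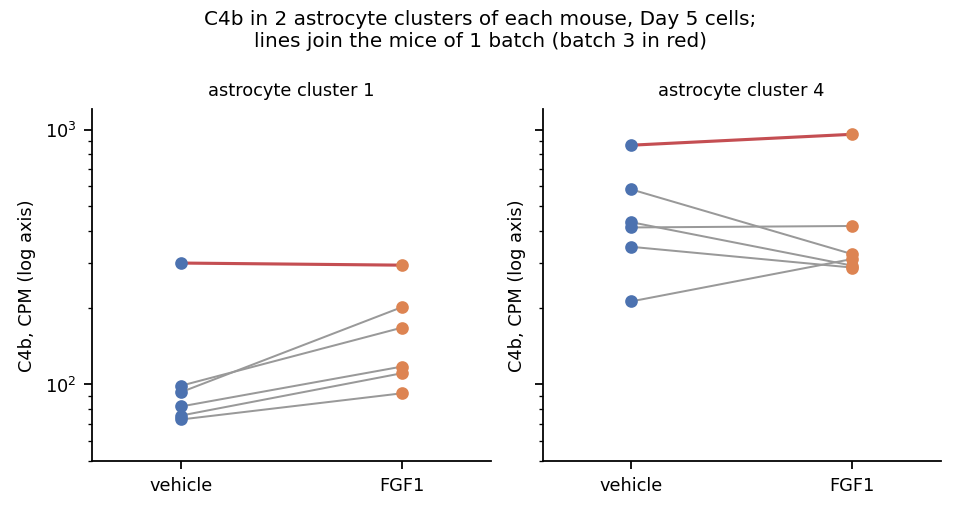
C4b in CPM (log axis) for each vehicle (blue) and FGF1 (orange) mouse in astrocyte clusters 1 and 4 of Day 5 cells, with lines joining the mice of a batch and batch 3 in red. In cluster 1, 5 of 6 lines slope up, and in cluster 4 the lines run both ways, with 3 of 6 up.

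C4b in oligodendrocytes, the myelin-forming cells, measured 18.2, 20.5, 81.3, 21.9, 16.4 and 22.9 CPM in vehicle mice and 109, 57.8, 182, 20.8, 33.0 and 45.3 CPM in FGF1 mice. It was higher in 5 of 6 batches, and the groups overlapped. C4b there had a log2 FC of 1.07 ± 0.60 (FDR = 0.393), 1.22 ± 0.22 with the block (FDR = 0.0044), and 1.34 without both mice of batch 3 (FDR = 0.0434). The blocked call held with each batch left out, at 0.96 to 1.39. Here too the groups lay partly in different clusters. Cluster 11 held 11.3 to 81.3% of the oligodendrocytes of FGF1 mice and 0.964 to 7.62% of those of vehicle mice. Its C4b was too sparse to be tested, with 6 vehicle and 101 FGF1 UMIs. These came from 17 to 56 vehicle and 89 to 487 FGF1 cells per mouse. As CPM, C4b there ran from 0 to 80.8 in vehicle and from 17.1 to 135 in FGF1 mice. In cluster 2, the largest oligodendrocyte cluster, the log2 FC was 1.52 with the block (FDR = 8.15e-05) and 1.39 without it (FDR = 0.352). In cluster 12, C4b was higher with FGF1 in batches 1, 3 and 6 and lower in batches 2, 4 and 5. It ran there from 0 to 181 CPM in FGF1 mice, with 3 to 130 cells each, and from 13.8 to 109 CPM in vehicle mice.

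C4b in tanycytes measured 53.7, 53.8, 122, 37.9, 22.3 and 31.5 CPM in vehicle mice and 97.8, 78.9, 167, 33.9, 45.7 and 61.7 CPM in FGF1 mice. Again 5 of 6 batches were higher and the groups overlapped. Its log2 FC was 0.62 ± 0.47 (FDR = 0.513), 0.64 ± 0.14 with the block (FDR = 0.0104, with 6.51% of genes called) and 0.77 without both mice of batch 3 (FDR = 0.216). Leaving out batch 6 ended the blocked call (0.56, FDR = 0.0729). By cluster, the blocked log2 FC was 0.71 in cluster 0 (FDR = 0.0148) and 1.52 in cluster 7 (FDR = 0.0073). In cluster 10, where it did not pass the filter on low counts, C4b was higher in 3 of 6 batches and lower in the other 3, at 0 to 124 CPM in FGF1 and 10.2 to 61.3 CPM in vehicle mice. Cluster 7 held 2.41 to 54.9% of the tanycytes of FGF1 mice and 4.74 to 29.4% of those of vehicle mice, a larger share in the FGF1 mouse of 5 of 6 batches.

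C4b in endothelial cells measured 13.7, 22.5, 56.8, 21.8, 6.27 and 20.4 CPM in vehicle and 48.0, 24.4, 118, 23.3, 15.5 and 36.7 CPM in FGF1 mice. It was higher in 6 of 6 batches, as were 4.04% of genes, and the groups overlapped. Its blocked log2 FC was 0.91 ± 0.24 (FDR = 0.0489), and it was 0.62 ± 0.58 without the block (FDR = 0.71). Leaving out batch 1 (FDR = 0.189), batch 3 (0.268) or batch 4 (0.0734) ended the call. C4b was tested in only 4 of the 6 such fits, and kept the call in 1 of them (FDR = 0.0423). C4b was too sparse to be tested in OPC, where it ran from 8.57 to 50.4 CPM in vehicle and from 22.0 to 185 CPM in FGF1 mice, and in microglia, where all 6 batches were higher (20.4 to 288 against 32.8 to 322 CPM), as were 2.8% of genes tested there.

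C4b in ependymal cells varied most between mice. It measured 39.7, 20.7, 915, 20.1, 25.7 and 27.7 CPM in vehicle mice and 527, 142, 676, 43.9, 154 and 39.8 CPM in FGF1 mice. The FGF1 mouse was higher in 5 of 6 batches, with ratios from 0.74 in batch 3 to 13.27, and FGF1 mouse 6 gave 19 ependymal cells. Over all mice the log2 FC was 0.18 ± 1.16 (95% interval -2.10 to 2.47, FDR = 0.988) and 1.73 ± 0.66 with the block (FDR = 0.345). Without both mice of batch 3 it was 2.81 (FDR = 0.166), and without FGF1 mouse 7 it was -0.68.

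The effect on C4b could not be shown to differ between cell types. Over 6 pairs of types for C4b and each C1q gene, 24 in all, the within-mouse difference of log2(CPM + 1) gave no adjusted p below 0.139. The C4b effect was 0.65 larger in astrocytes than in tanycytes, in 6 of 6 batches (exact permutation p = 0.0173, adjusted p = 0.139). For C1qa the astrocyte effect minus that of oligodendrocytes was -0.63 (p = 0.00649 by the same exact test, adjusted p = 0.139).

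C3, the convergence point of the cascade, passed the filter only in ependymal cells. It measured 28.7, 0, 325, 10.8, 9.36 and 21.3 CPM in vehicle mice and 326, 81.7, 159, 0, 39.4 and 36.4 CPM in FGF1 mice. The FGF1 mouse was higher in 4 of 6 batches and the groups overlapped from 0 upwards. For C3 the log2 FC was 0.58 ± 1.11 (FDR = 0.884) and 1.71 ± 0.81 with the block (FDR = 0.463). Without FGF1 mouse 7 it was -0.72 (FDR = 0.883), without vehicle mouse 22 it was 2.81 (FDR = 0.254), and without both mice of batch 3 it was 2.80 (FDR = 0.281).

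Elsewhere C3 was sparse. In tanycyte cluster 0 it gave 17, 3, 4, 0, 2 and 7 UMIs in FGF1 mice and 1 UMI over all vehicle mice, which did not pass the filter on low counts, and DESeq2 gave no adjusted p. In VLMC it measured 0, 152, 25.5 and 79.8 CPM in vehicle mice of batches 1, 3, 4 and 5, and 77.6, 26.5, 625.1, 31.1 and 0 CPM in FGF1 mice of batches 1, 2, 3, 5 and 6. In macrophages the highest values were again those of batch 3, with 232 CPM in its vehicle mouse, where the other 3 were at 0, and 142 CPM in its FGF1 mouse. Astrocytic C3, often used as a mark of reactive astrocytes, gave 28 UMIs in FGF1 mouse 6 (41.9 CPM), 2 in FGF1 mouse 36, 1 in vehicle mouse 22 and 0 in the other mice.

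Serping1 in VLMC, its main source, measured 582, 861, 408 and 734 CPM in vehicle mice of batches 1, 3, 4 and 5 and 931, 424, 938, 591 and 787 CPM in FGF1 mice of batches 1, 2, 3, 5 and 6. The groups overlapped, and the log2 FC was 0.22 ± 0.31 (FDR = 1.0). In tanycytes Serping1 measured 6.96, 8.97, 48.7, 7.11, 9.57 and 8.18 CPM in vehicle and 23.6, 16.8, 87.5, 11.1, 22.9 and 14.999 CPM in FGF1 mice. The groups overlapped through the vehicle mouse of batch 3. Each of the other vehicle mice lay below every FGF1 mouse, a description made after setting that mouse aside. The share of all genes that separate in this way was not measured. All 6 batches were higher, with ratios from 1.56 to 3.40, as were 6.4% of genes tested in tanycytes.

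The log2 FC of Serping1 in tanycytes was 0.90 ± 0.62 (FDR = 0.456) and 1.04 ± 0.19 with the block (FDR = 0.0025). It was called with each batch left out in turn (0.92 to 1.10) and, with no batch term, without both mice of batch 3 (1.19, FDR = 0.00537). In tanycyte cluster 0 the blocked value was 1.08 (FDR = 0.00872).

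The share of cells of each type moved as well. COP made up 3.64 to 11.6% of cells in FGF1 and 0.29 to 0.917% in vehicle mice (exact permutation p = 0.00216, adjusted p = 0.026). Tanycytes were a larger share (adjusted p = 0.039), and astrocytes and oligodendrocytes a smaller one (adjusted p = 0.0346 each by the exact permutation test). Summed over all cells of a mouse, C4b measured 51.8, 48.3, 218, 40.5, 38.0 and 37.6 CPM in vehicle and 134, 96.2, 299.6, 59.6, 79.8 and 73.0 CPM in FGF1 mice. No member of 6 was called in these sums (9.58% of genes were), and none had an unadjusted p under 0.05, by edgeR. DESeq2 also called 0, with 1 at an unadjusted p under 0.05. The log2 FC of summed C4b was 0.75 ± 0.54 (FDR = 0.411), 0.90 ± 0.12 with the block (FDR = 0.00679, with 7.86% called) and 1.05 without both mice of batch 3 (FDR = 0.00869).

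In Day 1 nuclei C4b was lower with FGF1 in both kinds of ventricular glia, short of the threshold. None of 10 member-by-type tests was called by edgeR (1.05% of all tests were), and 2 had an unadjusted p under 0.05, both lower with FGF1: C4b in tanycytes and in ependymal cells. DESeq2 called 0 of 91 (0.242% of all tests), with 3 at an unadjusted p under 0.05. With the batch block 1 of 10 was called, C4b in ependymal cells, against 0.556% of all tests.

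In tanycyte nuclei, C4b measured 323, 108 and 159 CPM in the vehicle mice of batches 3, 4 and 5 and 68.0, 67.0 and 100.5 CPM in the FGF1 mice. The groups did not overlap, which held for 27.8% of genes tested in tanycytes, and all 3 batches were lower, as 19.9% of genes were. These values rest on 20 to 119 nuclei and 6 to 18 UMIs per mouse. The log2 FC was -1.30 ± 0.47 (edgeR FDR = 0.108), and -1.30 with the block (FDR = 0.204).

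In ependymal nuclei, C4b measured 1031, 178 and 559.5 CPM in vehicle and 298, 94.9 and 205 CPM in FGF1 mice, from 13 to 23 nuclei and 4 to 36 UMIs per mouse. All 3 batches were lower (26.1% of genes were), and the groups overlapped. The log2 FC was -1.60 ± 0.61 (FDR = 0.0954) by edgeR and -1.62 (FDR = 0.103) by DESeq2. It was called with the block, at -1.48 ± 0.41 (FDR = 0.026), where 14.7% of ependymal genes were called, and without vehicle mouse 1, at -2.02 (FDR = 0.0145). FGF1 nuclei were the shallower ones on Day 1, with median UMIs per nucleus of 2029 to 2816 per mouse against 3178.5 to 3776 in vehicle mice. With each nucleus thinned to 1 fixed number of UMIs, C4b was too sparse to be tested in ependymal cells and in tanycytes.

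Astrocyte nuclei on Day 1 showed no such difference in C4b. They measured 268, 102 and 159 CPM in vehicle and 256, 170.4 and 167 CPM in FGF1 mice, with a log2 FC of 0.19 ± 0.48 (FDR = 0.991). C4b in unmapped neurons, those the study matched to no reference neuron type, had a log2 FC of 0.87 ± 0.39 (FDR = 0.707).

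C1q, Serping1 and C3 gave no call on Day 1. C1qa in nuclei called microglia measured 107, 126 and 247 CPM in vehicle and 313, 153 and 141 CPM in FGF1 mice. C1qb measured 154, 149.9 and 241 CPM in vehicle and 358, 163 and 90.0 CPM in FGF1 mice, and C1qc 154, 174 and 163 CPM in vehicle and 284, 102 and 90.0 CPM in FGF1 mice. Day 1 log2 FCs were 0.32 for C1qa (FDR = 0.965), 0.21 for C1qb (0.977) and 0.01 for C1qc (0.999). Serping1 in VLMC measured 628, 215 and 489.6 CPM in vehicle mice and 489 and 288 CPM in the FGF1 mice of batches 3 and 5. Its log2 FC was -0.20 ± 0.67 there (FDR = 0.907) and 0.31 in unmapped neurons (FDR = 0.87). C3 was too sparse to be tested in any type of nuclei, and in ependymal nuclei it measured 172, 29.6 and 62.2 CPM in vehicle and 29.8, 94.9 and 341.8 CPM in FGF1 mice.

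In Day 5 nuclei C4b was higher with FGF1 in astrocytes, again short of the threshold. C4b measured 73.2 and 127 CPM in the vehicle mice of batches 1 and 2 and 188 and 365 CPM in the FGF1 mice, from 208 and 33 vehicle and 110 and 384 FGF1 nuclei. The groups did not overlap, and neither did those of 41.4% of genes tested. The log2 FC was 1.59 ± 0.44 (edgeR FDR = 0.102) and 1.44 with the block (FDR = 0.411). With each mouse left out, which leaves 1 mouse in a group, it ran from 0.99 to 1.99, highest without vehicle mouse 38. DESeq2 gave an FDR of 0.067. Of all 12 member-by-type tests none was called by edgeR, either without the block (0.288% of all tests were) or with it (0.426%), and 4 had an unadjusted p under 0.05: C4b in astrocytes, higher, and C1qc in astrocytes, microglia and unmapped neurons, lower. DESeq2 called 0 of 56 (0.0405% of all tests), with 2 at an unadjusted p under 0.05.

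**Figure D5:**
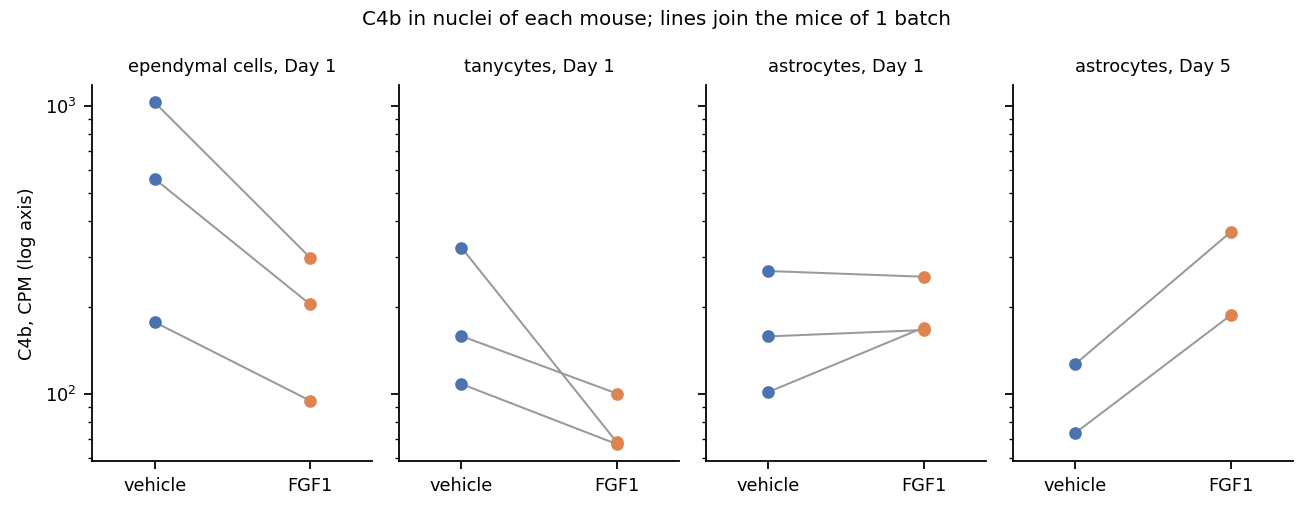
C4b in CPM (log axis) for each vehicle (blue) and FGF1 (orange) mouse in ependymal, tanycyte and astrocyte nuclei of Day 1 and astrocyte nuclei of Day 5, with lines joining the mice of a batch. The lines slope down in ependymal cells and tanycytes on Day 1 and up in astrocytes on Day 5, where the FGF1 mice had 188 and 365 CPM.

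C1qc was the C1q chain with negative estimates in every type tested in Day 5 nuclei. In nuclei called microglia it measured 125 and 109 CPM in vehicle and 54.6 and 62.6 CPM in FGF1 mice, which did not overlap (37.9% of genes did not). With 25 and 9 vehicle and 11 and 24 FGF1 UMIs, the log2 FC was -1.002 ± 0.40 (edgeR FDR = 0.604). C1qa, at 141 and 109 against 109 and 256 CPM, and C1qb, at 136 and 109 against 134 and 172 CPM, had log2 FCs of 0.57 (FDR = 0.799) and 0.30 (FDR = 0.904).

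In astrocyte nuclei, C1qc measured 32.5 and 21.2 CPM in vehicle and 7.52 and 8.57 CPM in FGF1 mice, with a log2 FC of -1.83 ± 0.59 (FDR = 0.171). It ran from -1.92 to -1.70 in the 3 fits with a mouse left out in which it was tested. Each of these leaves 1 mouse in a group. The other chains overlapped in astrocyte nuclei, C1qa at 63.5 and 7.06 against 15.03 and 36.4 CPM (log2 FC -0.75, FDR = 0.575) and C1qb at 55.3 and 28.2 against 17.5 and 28.9 CPM (log2 FC -0.94, FDR = 0.375). In unmapped neurons, which should lack C1q, C1qc measured 2.28 and 2.65 CPM in vehicle and 0.238 and 0.281 CPM in FGF1 mice, from 1 to 11 UMIs per mouse (log2 FC -3.03 ± 0.80, FDR = 0.393).

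As a share of all C1q UMIs of a library, C1qc made up 26.3% (exact 95% binomial interval 21.0 to 32.1) and 36.0% (22.9 to 50.8) in vehicle nuclei of Day 5, and 14.8% (8.71 to 22.9) and 8.81% (6.42 to 11.7) in FGF1 nuclei. The lower of the FGF1 intervals overlapped neither vehicle interval. On Day 1 the shares were 42.0%, 25.1% and 35.1% in vehicle mice 1, 2 and 3 and 26.7%, 19.4% and 22.6% in the FGF1 mice. In whole cells they were 27.3 to 33.8% in all 12 mice. These intervals cover counting error only.

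Serping1 in nuclei was also carried by Glu5, a glutamatergic neuron type of the deposited annotation. On Day 1 it measured 63.0, 29.6 and 55.1 CPM in vehicle Glu5 nuclei and 81.7, 78.2 and 44.2 CPM in FGF1 ones, beside 8.90 ± 1.03 CPM (SD, n = 3) in vehicle unmapped neurons. On Day 5 it measured 67.1 and 0 CPM in vehicle, the latter from 11 nuclei, and 34.7 and 63.6 CPM in FGF1 Glu5 nuclei (log2 FC -0.15, FDR = 0.991). Summed over all nuclei of a mouse, no member was called on Day 1 (0 of 6, with 0.274% of genes called and none of the 6 at an unadjusted p under 0.05) or on Day 5 (0 of 5, with 0.0% called and 2 at an unadjusted p under 0.05) by edgeR. C4b in the Day 5 sums measured 7.88 and 13.6 CPM in vehicle and 16.5 and 32.2 CPM in FGF1 mice (log2 FC 1.27 ± 0.39, FDR = 0.493). C1qc in these sums went the other way, at 6.52 and 6.13 CPM in vehicle and 1.85 and 2.67 CPM in FGF1 mice (log2 FC -1.46 ± 0.38, FDR = 0.493). The groups of neither gene overlapped, as was so for 43.3% of the genes tested in these sums.

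No effect was shown to differ between the days. Of 14 tests of the interaction of day and treatment in nuclei, edgeR called none, where 0.0% of all genes in the same 4 types were called, and 1 had an unadjusted p under 0.05. DESeq2 also called none of these (0.00778% of all genes), with 1 at an unadjusted p under 0.05. The Day 5 effect on C4b in astrocytes exceeded that of Day 1 by 1.34 ± 0.72 on the log2 scale (edgeR FDR = 0.70). Tanycyte and ependymal C4b could not be tested for it, since only 9 and 14 tanycyte nuclei with 2 UMIs each came from the Day 5 vehicle mice (60.8 and 30.0 CPM, against 96.0 and 153 CPM in FGF1 mice).

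Other genes of complement were taken from a list of 55 (components, regulators and receptors), of which 32 were in the whole-cell table and 42 in the nuclei. In Day 5 cells, 4 of 80 gene-by-type tests over 25 genes were higher and 1 was lower, beside 4.18% of all tests called and 12.6% of the genes tested in astrocytes, where 3 of the 5 calls lay, with a median log2 FC of 0.10 beside -0.00 for all genes. Clu, which encodes clusterin, an inhibitor of the terminal complex, measured 1919, 1986, 2849, 1954, 1764 and 1833 CPM in vehicle astrocytes and 3821, 4227, 3258, 4771, 5062 and 3559 CPM in FGF1 astrocytes. The groups did not overlap (5.16% of astrocyte genes did not), and Clu rose by a log2 FC of 1.00 ± 0.12 (FDR = 3.58e-06). C2, the serine protease of the classical convertase, fell in astrocytes, from 18.6 to 34.5 CPM in vehicle to 3.08 to 16.9 CPM in FGF1 mice, also without overlap (log2 FC -0.96 ± 0.22, FDR = 0.00447).

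Lrp1, an endocytic receptor, rose in astrocytes by a log2 FC of 0.32 ± 0.10 (FDR = 0.0292), from 282 to 355 CPM in vehicle to 352 to 434 CPM in FGF1 mice. Susd4, a regulator of the convertase, rose in COP by a log2 FC of 0.89 ± 0.21 (FDR = 0.0241), from 110 to 280.5 CPM in vehicle to 284 to 429 CPM in FGF1 mice. Hc, which encodes C5, rose in ependymal cells by a log2 FC of 0.69 ± 0.19 (FDR = 0.0474), from 41.4 to 63.9 CPM in vehicle to 39.8 to 111 CPM in FGF1 mice.

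In Day 1 nuclei 2 of 155 tests over 27 genes of the list were higher and none lower, both in tanycytes, beside 1.05% of all tests and 9.14% of the genes tested in tanycytes called, with a median log2 FC of 0.16 beside 0.01 for all genes. Calr, encoding calreticulin, a chaperone that also binds C1q, measured 53.8, 127 and 112 CPM in vehicle and 461, 243 and 335 CPM in FGF1 tanycytes (log2 FC 1.77 ± 0.42, FDR = 0.0205). Clu measured 538, 352 and 599 CPM in vehicle and 2040, 1659 and 971 CPM in FGF1 tanycytes (1.66 ± 0.43, FDR = 0.0274). Neither gene's groups overlapped, with FGF1 the higher, where 27.8% of tanycyte genes did not overlap. In Day 5 nuclei 0 of 119 tests over 29 genes were called, with a median of 0.12 beside 0.00.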

How the data were processed

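Per the labels and the methods of the study, nuclei and dissociated whole cells were run on the 10x Chromium system and aligned with Cell Ranger 1.2 to GRCm38, with introns included for nuclei. The authors removed doublets (Scrublet) and neurons from the whole cells and no doublets from the nuclei, and deposited unnormalised UMI counts per gene and barcode with cell types or clusters. Cluster numbers of whole cells were named from fixed marker genes, needing 3 markers, and clusters 18 and 20 stayed unnamed. Counts were summed per mouse and type, with at least 10 cells per mouse and 2 mice per group. Genes passing filterByExpr were scaled by TMM and tested by edgeR 4.0.16 (quasi-likelihood, robust) under R 4.3.3, without covariates, with Benjamini-Hochberg FDR over all genes of a type and a threshold of 0.05. The CPM are TMM-scaled, and an SE is the absolute log2 FC over the root of the F statistic. DESeq2 1.42.0, RLE scaling, no filter, at least 20 cells, thinned cells, the authors' quality limits, the replicate block, the batch block and each mouse left out were alternatives. The quality limits used the mitochondrial and ribosomal percent values that the authors deposited per whole cell. The scripts were tested on simulated data. The members, lists and tests were chosen with earlier results of these data known. Every member is described, with mouse values in types where it was called and in those of its 3 highest types where it passed the filter. Genes of the complement list are named where called.

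Replicate numbers in the labels did not pair the nuclei of Day 1 (correlations of -0.16, -0.05 and 0.35 between same-numbered mice). Batches come from the deposited metadata, where each held 1 mouse of both groups. Deviations of same-batch mice correlated at -0.18 to 0.38 in cells and at 0.04 in Day 5 nuclei. In Day 1 nuclei they correlated at -0.37, -0.07 and -0.49 in batches 3, 4 and 5. Batch is thus an alternative and not the main design. Each library is 1 mouse. Authors' comparisons were not used. Exact tests used scipy 1.17.1, were two-sided, and with 3 against 3 mice cannot go below 0.1.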

Additional observations from a re-analysis of the deposited data

Results flagged for a closer look

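In groups of 4 to 10 mice, the highest or lowest mouse was compared with the rest by Dixon's criterion at 95%, which chance meets in about 1 of 20 groups. Of 68 groups 18 met it, each through the highest mouse, and each of these mice was from batch 3 of the whole cells. C4b in vehicle mouse 22 was 396 CPM in astrocytes, 56.8 in endothelial cells, 915 in ependymal cells, 81.3 in oligodendrocytes and 122 in tanycytes, and in FGF1 mouse 6 it was 784 CPM in astrocytes and 118 in endothelial cells. Serping1 in tanycytes was 48.7 CPM in vehicle mouse 22 and 87.5 CPM in FGF1 mouse 6. C3 in ependymal cells was 325 CPM in vehicle mouse 22, where the other 5 vehicle mice had 0 to 28.7. For C1q, FGF1 mouse 6 had 105 CPM of C1qa in astrocytes, 163 CPM of C1qb in endothelial cells and 176 in oligodendrocytes, and 145, 108, 150.4 and 141 CPM of C1qc in OPC, astrocytes, endothelial cells and oligodendrocytes. C1qb in OPC of vehicle mouse 22 was 78.0 CPM. Since 1 mouse of each group is concerned, batch 3 widened both groups at once. The cause was not tested.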

How the results depend on the processing

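Depth limits C3 and Serping1 outside their main types and all members in nuclei, where most values rest on few UMIs. In Day 5 cells by type, where 0 of 34 tests were called, DESeq2 called 1, the batch block 10, DESeq2 with the block 5, the fit without a low-count filter 3 and the fit without both mice of batch 3 called 5. The block with batch 1, 2, 3, 4, 5 or 6 left out called 9, 8, 6, 7, 10 and 6. Leaving out single mice gave 0 to 3 calls (vehicle mouse 22: 3, FGF1 mouse 36: 2, vehicle mouse 35: 1). By cluster the block called 9 against 0. In sums over all cells (0 called), the block, DESeq2 with the block, the block with any batch left out and the fit without batch 3 each called 1, and single mice gave 0 to 1 (vehicle mouse 22). In Day 1 nuclei (0 called), the batch block and no filter each called 1, and single mice gave 0 to 1 (vehicle mouse 1). In Day 5 nuclei (0 called), no filter and the stated quality limits each called 1. Leaving out a mouse there leaves 1 mouse in a group, so calls from those fits are not given. Signs turned for C4b in Day 1 astrocytes inside the quality limits (-0.033), thinned (-0.041) and with single mice left out (-0.063 to 0.60), for C4b in ependymal cells (-0.68 to 2.90) and C3 in ependymal cells (-0.72 to 2.81) with single mice left out, and for Serping1 in VLMC with the block and without batch 1 (-0.10). The cause was not tested. The replicate block in Day 1 nuclei, on label numbers that do not pair the mice, called 0. Day 5 groups share no replicate numbers. RLE scaling turned or ended none of 21 results. DESeq2 with the block, the block with a batch left out, the blocked clusters and sums, and the fits without both mice of batch 3 were chosen after seeing the data. The block could not be fitted in 2 neuron types of Day 1.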
